A study of Mus musculus with 6 samples.

Results

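The nuclear genes for the subunits of oxidative phosphorylation were taken from the authors' deposited table of hippocampal messenger RNA by name. They are the protein-coding rows whose symbols belong to the NADH dehydrogenase, succinate dehydrogenase, cytochrome bc1, cytochrome c oxidase and ATP synthase series, with assembly factors of the Ndufaf type left out. The rule found 85 of the 17385 genes tested. By name 38 belong to complex I, 4 to complex II, 9 to complex III, 17 to complex IV and 17 to complex V. The names Atp5s, Atp5sl and Cox7a2l match as well, although their products are described as assembly or supercomplex factors.

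Complexes I to IV of the inner mitochondrial membrane pass electrons from NADH and succinate to oxygen, complexes I, III and IV pump protons, and complex V, the ATP synthase, uses the proton gradient to make ATP. Most subunits are encoded in the nucleus and imported, while a few of the core are encoded by mitochondrial DNA and must be matched to them. In the brain this pathway supplies most of the ATP spent on ion pumping and synaptic transmission.

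The series compares 3 sATF6-KI mice with 3 control mice, and each group is a set of whole hippocampi from C57BL/6 animals aged 2 months. Control mice have the genotype EMX1-Cre. The sATF6-KI mice have the genotype Rosa26-sATF6-MER;Emx1-Cre, so Cre is shared and the short-form ATF6 allele is not. ATF6 is a transcription factor of the endoplasmic reticulum stress response, and MER is derived from the ligand-binding domain of an estrogen receptor. Emx1 drives Cre in progenitors of the dorsal forebrain, and in which hippocampal cells the allele was active is not analysed here, nor is whether a ligand was given.

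Every level, fold change and p-value of a gene below is from the authors' deposited table, a DESeq2 comparison of sATF6-KI over control. The number after ± is a Wald standard error on the log2 scale, computed here as the log2 fold change over the authors' Wald score. It replaces the standard error of the authors' deposited table, and all Wald intervals are computed from it. Where a value with ± or an interval is credited to that table, the credit covers the value and not the error or the interval. A gene counts as called where the authors' adjusted p is under 0.05. BaseMean is the mean normalized signal over all libraries. Values per mouse are not used here, because the 6 library columns have names that match no sample label, so neither the depth of a sample nor the overlap of the groups can be given. Hippocampal markers were well expressed in the authors' deposited table, with a baseMean of 5769 for Prox1 of the dentate gyrus and 5115 for Wfs1 of field CA1.

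Promoter stretches are shown for the 2 members with the largest called falls, Cox6a1 and Ndufa5, and for the paralogs Cox8a and Cox8b, which stood on opposite sides of 0. Each is the 180 bases before a RefSeq start site on GRCm38.p6, read on the gene's strand, which is the minus strand for all 4. Where a gene has several start sites, the most upstream was used. Capitals mark matches, lying wholly within a stretch, to the motifs searched, given in the next paragraph.
Cox6a1, chr5:115348959-115349138: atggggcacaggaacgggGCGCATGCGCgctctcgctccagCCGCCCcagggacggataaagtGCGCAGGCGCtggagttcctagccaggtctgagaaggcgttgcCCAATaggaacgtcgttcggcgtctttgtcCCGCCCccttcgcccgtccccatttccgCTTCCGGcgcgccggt
Ndufa5, chr6:24527691-24527870: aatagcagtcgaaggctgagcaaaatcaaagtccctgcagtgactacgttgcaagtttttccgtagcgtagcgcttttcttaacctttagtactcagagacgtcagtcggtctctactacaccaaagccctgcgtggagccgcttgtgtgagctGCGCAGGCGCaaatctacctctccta
Cox8a, chr19:7217617-7217796: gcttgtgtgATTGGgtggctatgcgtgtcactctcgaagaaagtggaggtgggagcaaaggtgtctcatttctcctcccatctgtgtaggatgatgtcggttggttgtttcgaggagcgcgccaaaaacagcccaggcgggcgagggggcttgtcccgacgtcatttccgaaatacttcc
Cox8b, chr7:140900447-140900626: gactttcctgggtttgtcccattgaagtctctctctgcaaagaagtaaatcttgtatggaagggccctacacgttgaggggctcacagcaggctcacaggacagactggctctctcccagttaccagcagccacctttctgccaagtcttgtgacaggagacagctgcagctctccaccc

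RefSeq promoter windows, from 250 bases before to 50 after a start site, were matched for 70 members and gave 76 windows. They were searched on both strands. The NRF1 motif, GCGCA followed by any base and GCGC, bound by a known activator of respiratory chain genes, was in 18 member windows (23.7%) and in 4.60% of all 32851 windows. The ETS motif CCGGAAG, bound by GABPA among others, was in 21.1% of member windows and 8.86% of all windows, and the YY1 motif AAGATGGCG in 11.8% and 1.40%. The GC box GGGCGG was in 39.5% and 35.7%, the CCAAT box CCAAT in 42.1% and 37.4%, and the ERR motif TNAAGGTCA in 3.95% and 1.28%. The ER stress response element, CCAAT then 9 bases of any kind then CCACG, is the classical ATF6 target and contains the CCAAT box. It was in 0 member windows and in 0.119% of all windows. At so low a share, 0 in 76 windows does not set the members apart from other genes. The ATF6 site TGACGTG was in 1 member window, that of Atp5s, and in 2.01% of all windows. In Hspa5, the ER chaperone BiP, the same search found 1 ER stress response element in its 1 window. Cox6a1 holds 2 NRF1 matches in the stretch printed above and Ndufa5 holds 1, while Cox8b holds none of the motifs there. The window of Cox8a also has ETS matches that begin at -5 and 32 from its start site. The match at -5 crosses the end of the printed stretch and is not in capitals. A match of letters describes the window and does not show binding.

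Messenger RNA of oxidative phosphorylation genes was slightly lower in sATF6-KI hippocampus across all 5 complexes. Of the 85 members, 73 (85.9%) had a log2 fold change below 0 in the authors' deposited table, against 48.7% of all genes tested. The median member was at -0.13, a change of -8.65%, where the median of all genes was 0.00499. Single genes seldom passed the test: 6 members were called lower (7.06%) and 0 higher by the authors' DESeq2 test, beside 1.93% and 3.41% of all genes. At an unadjusted p under 0.05, 34 members (40.0%) were lower and 1 was higher in the authors' deposited table, beside 7.59% and 8.2% of all genes. Members share mice, libraries and normalization, so these counts describe the group and are not independent observations.

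Expression level moved with this result. Most members are abundant, with a median baseMean of 2631 against 622 for all genes in the authors' deposited table, and abundant genes in general lay below 0. Among the 3068 genes with a baseMean of at least 3000, 69.9% were below 0, the median was -0.06, and 7.2% were called lower (23.4% at an unadjusted p under 0.05). Of the 38 members at that level, all were below 0, their median was -0.14, 5 were called lower (13.2%), and 21 (55.3%) were lower at an unadjusted p. The called share of all members, 7.06%, takes in scarcer genes and is not a like comparison. At a baseMean of at least 3000 the shares called lower were 13.2% of members and 7.2% of all genes. Whether these shares differ was not tested. The median of the members at that level lay further below 0 than the median of abundant genes, a difference that was not tested.

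**Figure D1:**
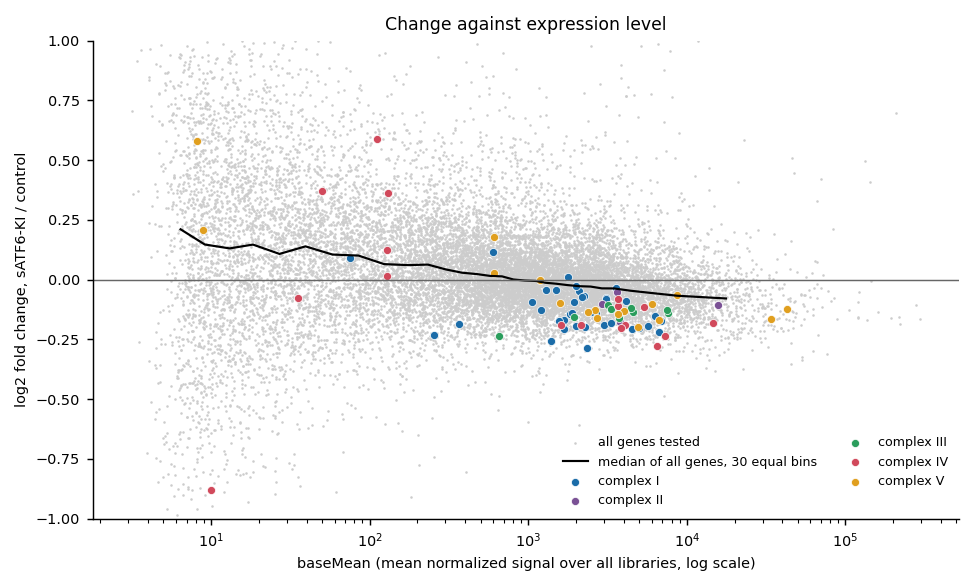
Log2 fold change of sATF6-KI over control (vertical axis) against baseMean, the mean normalized signal over all libraries (horizontal axis, log scale), for all genes tested (grey, within 1 of 0) and the 85 members (coloured by complex). The black line is the median of all genes in 30 equal bins of baseMean. All 38 members with a baseMean of at least 3000 lie below 0, and most of the members above 0 are scarce.

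The size of the shift was limited. In all 69 members with a baseMean of at least 1000, the 95% Wald interval computed here lay within a 1.5-fold change in either direction. Of these 69, 68 were below 0, and the exception was Ndufa2, an accessory subunit of complex I, at 0.01 ± 0.09. Their Wald standard errors, like the shift itself, were small on the log2 scale: the median over all members was 0.07. In bulk tissue, fewer cells of a type that is rich in these transcripts and less transcript per cell cannot be told apart.

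**Figure D2:**
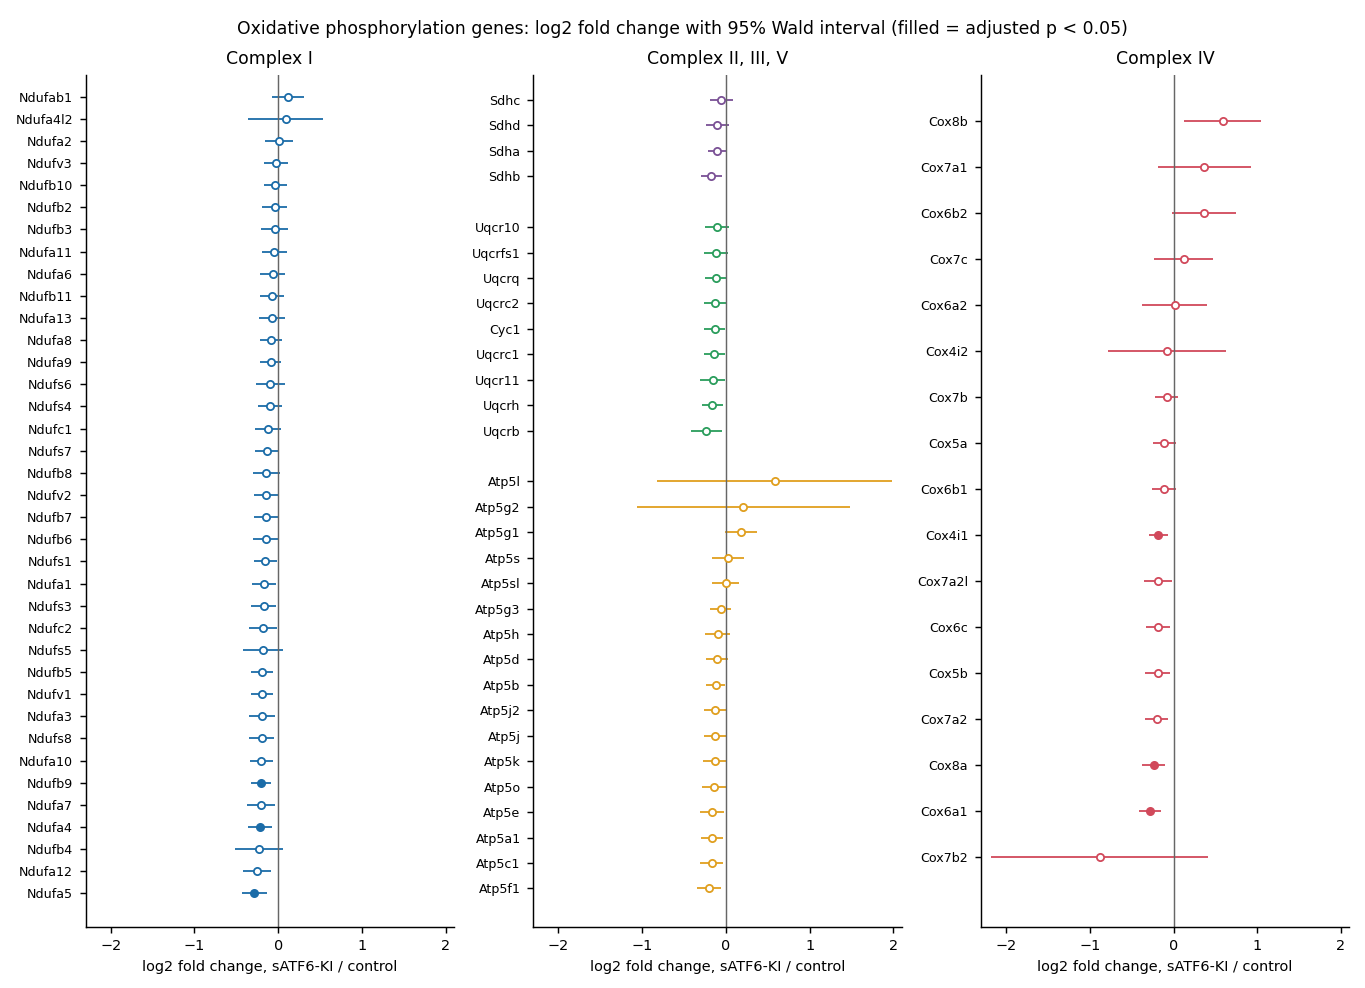
Log2 fold change of sATF6-KI over control (horizontal axis) for the members reported here, sorted within complexes I to V, with 95% Wald intervals as bars. Filled points are the 6 genes called lower at the authors' adjusted p under 0.05, 3 in complex I and 3 in complex IV by name, and the scarce members of complexes IV and V have the widest intervals.

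Complex IV, cytochrome c oxidase, holds the respiratory chain's oxygen-reducing site and is assembled around subunits encoded in mitochondrial DNA. Cox6a1, the widely expressed form of subunit VIa on chromosome 5 from 115345642 to 115348981 (GRCm38), had a baseMean of 6519 in the authors' deposited table. It had a log2 value of -0.28 ± 0.07 in the authors' deposited table, or 1.21-fold lower in sATF6-KI (95% interval 1.11 to 1.33, the authors' DESeq2 adjusted p = 0.00228). Cox8a, the widely expressed form of the smallest nuclear subunit, was lower by a factor of 1.18 in the authors' deposited table (95% interval 1.07 to 1.30, the authors' DESeq2 adjusted p = 0.0235). Cox4i1, the common form of the largest nuclear subunit, was lower by a factor of 1.13 in the authors' deposited table (95% interval 1.05 to 1.23, the authors' DESeq2 adjusted p = 0.0462). These 3 were the called genes of the 17 named for the complex.

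Ndufa4, which carries a complex I name, is now described as a subunit of complex IV. It was lower by a factor of 1.16 in the authors' deposited table (95% interval 1.06 to 1.28, the authors' DESeq2 adjusted p = 0.0454). Counted by that role, complex IV held 4 of the 6 called genes (22.2% of its 18) and complex I held 2 (5.41% of its 37). The share called lower was 1.93% over all genes and 7.2% over genes with a baseMean of at least 3000. Whether the complexes differ was not tested. Of the 17 genes named for complex IV, 12 were below 0, with a median of -0.11 (log2) in the authors' deposited table. The 10 with a baseMean of at least 150 were all below 0, with a median of -0.19, where the 37 complex I genes at that level had -0.14. Cox7a2, Cox5b and Cox6c stood at -0.20 ± 0.07, -0.19 ± 0.08 and -0.19 ± 0.07 in the authors' deposited table without passing the test. Cox7a2l, the supercomplex factor, was at -0.19 ± 0.08, Cox6b1 and Cox5a were both at -0.11, and Cox7b was nearest to 0 at -0.08 ± 0.07 in the authors' deposited table.

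The other 7 complex IV genes had a baseMean under 150, a level that for Cox7c is uncertain because of gene copies described below. Besides Cox7c, the common form of subunit VIIc, they are paralogs known from muscle, lung, testis or other tissues. Each of 7 abundant forms was set beside its scarce paralog, per kilobase of the longest coding transcript. The abundant form had from 39.1 times the level of its paralog, for Cox6b1 over Cox6b2, to 396 times, for Cox4i1 over Cox4i2. All 7 abundant forms were below 0 and 4 were called lower, while 5 of 7 scarce forms were above 0 and 0 were called. Called lower were 1.93% of all genes and 7.2% of genes with a baseMean of at least 3000. The abundant form lay below the scarce one in 6 of 7 pairs. The exception was Cox7b2, at -0.88 ± 0.66 from a baseMean of 10.03. Its log2 fold change in the authors' deposited table was the lowest of all members and lay below that of Cox7b. At an unadjusted p under 0.05, 1 scarce form was higher, namely Cox8b. Of all genes, 8.2% were higher at that threshold.

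Cox8b, the heart and muscle form of subunit VIII, was the member with the highest log2 fold change in the authors' deposited table, at 0.59 ± 0.23 from a baseMean of 111 (the authors' DESeq2 adjusted p = 0.134). Its Wald interval, 0.13 to 1.05, did not overlap that of Cox8a, -0.38 to -0.10. This was the 1 pair of 7 whose intervals were apart, and the pair was chosen for display after its values were seen. Cox7a1, the muscle form of subunit VIIa, was at 0.37 ± 0.28 in the authors' deposited table, against -0.20 ± 0.07 for Cox7a2. Cox6b2, the testis form of subunit VIb, was at 0.36 ± 0.20 in the authors' deposited table, against -0.11 ± 0.08 for Cox6b1. Cox6a2 and Ndufa4l2 were at 0.01 ± 0.20 and 0.09 ± 0.23, and Cox4i2, an oxygen-responsive form of lung, was at -0.08 ± 0.36 in the authors' deposited table. Scarce genes in general lay above 0: the 5251 genes with a baseMean under 150 had a median of 0.12, with 35.5% below 0, while the 10 members under 150 had a median of 0.16.

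**Figure D3:**
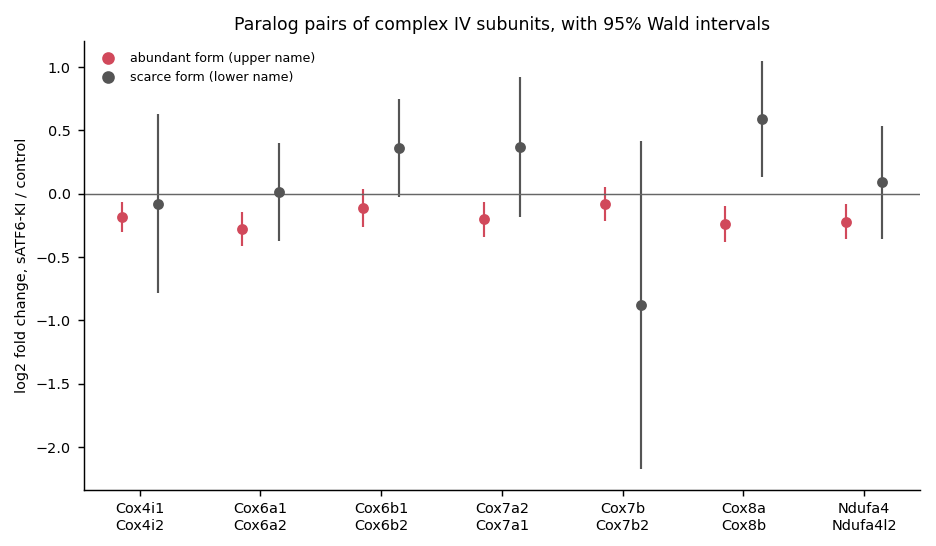
Log2 fold change of sATF6-KI over control (vertical axis) with 95% Wald intervals for 7 pairs of paralogs, the abundant form in red and the scarce form in grey. In 6 of 7 pairs the abundant form lies below the scarce one, with Cox7b and Cox7b2 the exception, and the intervals are apart for Cox8a and Cox8b only.

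Complex I, NADH dehydrogenase, is the entry point of electrons from NADH and the largest complex of the chain. Of its 38 genes, 35 were below 0, with a median of -0.14. By the authors' DESeq2 test 3 (7.89%) were called lower and 0 higher, beside 1.93% and 3.41% of all genes. With an unadjusted p under 0.05, 15 (39.5%) were lower and 0 higher in the authors' deposited table. That share was 7.59% over all genes and 23.4% over genes with a baseMean of at least 3000. Ndufa5, an accessory subunit of the matrix arm on chromosome 6 from 24518666 to 24528013 (GRCm38), had the largest called fall of all members. Its baseMean was 2350, and it had a log2 value of -0.28 ± 0.08 in the authors' deposited table, or 1.22-fold lower (95% interval 1.10 to 1.35, the authors' DESeq2 adjusted p = 0.0067). Ndufb9, an accessory subunit of the membrane arm, was lower by a factor of 1.15 in the authors' deposited table (95% interval 1.06 to 1.26, the authors' DESeq2 adjusted p = 0.0278). Ndufa12, another accessory subunit, was close to the threshold at -0.26 ± 0.09 in the authors' deposited table (the authors' DESeq2 adjusted p = 0.0541).

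The 7 nuclear core subunits of complex I, which bind NADH, flavin, iron-sulfur clusters or quinone, moved within a narrow range. All 7 were below 0, from -0.20 to -0.14, with a median of -0.17 in the authors' deposited table. By the authors' DESeq2 test 0 were called, but 5 (71.4%) were lower with an unadjusted p under 0.05. That share was 7.59% over all genes and 23.4% over those with a baseMean of at least 3000. Ndufs8, an iron-sulfur subunit, was at -0.20 ± 0.07 in the authors' deposited table, and Ndufv1, the NADH- and flavin-binding subunit, at -0.19 ± 0.07. Ndufs1, the largest iron-sulfur subunit, was at -0.15 ± 0.07, and Ndufv2 and Ndufs7 were at -0.14 ± 0.08 and -0.14 ± 0.07 in the authors' deposited table. The 31 accessory genes had a wider range, from -0.28 to 0.12, with a median of -0.13. At the upper end stood Ndufab1, the mitochondrial acyl carrier protein, which also serves fatty acid synthesis, at 0.12 ± 0.10 in the authors' deposited table. All 10 Ndufb genes, which belong to the membrane arm, were below 0.

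Complex II, succinate dehydrogenase, links the chain to the citric acid cycle and has no subunit encoded in mitochondrial DNA. Its 4 genes lay between -0.18 and -0.05, with the smallest median of the 5 complexes, -0.10, and 0 were called by the authors' DESeq2 test. Sdhb, the iron-sulfur subunit, was lowest at -0.18 ± 0.06 in the authors' deposited table (the authors' DESeq2 adjusted p = 0.0862). It was the 1 gene of the 4 (25%) lower at an unadjusted p under 0.05. At that threshold 7.59% of all genes were lower, and 23.4% of those with a baseMean of at least 3000. Sdha, the flavoprotein that oxidises succinate, was at -0.11 ± 0.06, and the membrane anchors Sdhd and Sdhc were at -0.10 ± 0.07 and -0.05 ± 0.07 in the authors' deposited table.

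Complex III, cytochrome bc1, passes electrons from quinol to cytochrome c. All 9 genes were below 0, between -0.24 and -0.11, with a median of -0.13. None of the 9 was called by the authors' DESeq2 test, and an unadjusted p under 0.05 was found for 5 (55.6%), all lower. Lower at that threshold were 7.59% of all genes and 23.4% of genes with a baseMean of at least 3000. The core proteins Uqcrc1 and Uqcrc2 were at -0.14 ± 0.06 and -0.13 ± 0.07 in the authors' deposited table. Cyc1, the heme-bearing cytochrome c1, was at -0.13 ± 0.06, and Uqcrfs1, the Rieske iron-sulfur protein, at -0.12 ± 0.07 in the authors' deposited table. The lowest was Uqcrb, a small subunit at the quinone site, at -0.24 ± 0.09 in the authors' deposited table, and the highest was Uqcr10 at -0.11 ± 0.07.

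Complex V, the ATP synthase, had 13 of 17 genes below 0, a median of -0.12, and 0 calls by the authors' DESeq2 test, with 6 lower and 0 higher at an unadjusted p under 0.05. The catalytic head genes were the most abundant members, with a baseMean of 42493 for Atp5b and 33731 for Atp5a1 in the authors' deposited table. Atp5b was at -0.12 ± 0.06 and Atp5a1 at -0.16 ± 0.06 in the authors' deposited table. Atp5c1, the rotating central stalk, was at -0.17 ± 0.07, and Atp5f1, the stator subunit b, was lowest at -0.20 ± 0.07 in the authors' deposited table (the authors' DESeq2 adjusted p = 0.0979). The 3 genes for the c-ring encode the same mature protein. Atp5g3, the abundant one, was at -0.06 ± 0.06, Atp5g1 at 0.18 ± 0.10 and Atp5g2 at 0.21 ± 0.65 in the authors' deposited table. The factors Atp5s and Atp5sl were near 0, at 0.03 ± 0.10 and -0.00288 ± 0.08.

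Copies of these genes touch some values. For each member, the share of 50-base windows of its longest coding transcript that also occur in a GENCODE M21 transcript of another gene was computed, and 39 members had none. Among the called genes Ndufa5, Cox8a and Ndufa4 shared 0%, Cox6a1 shared 12.3% with a pseudogene, Cox4i1 14.7% with its overlapping neighbour Emc8, and Ndufb9 23.4% with Gm49356. Atp5l shared 84.8% of its windows, with 14 genes, processed pseudogenes among them, and its baseMean was 8.19, so its value of 0.58 ± 0.72 in the authors' deposited table is uncertain. Cox7c, at a baseMean of 128, shared 27.9%, and its value of 0.12 ± 0.18 in the authors' deposited table is uncertain for the same reason. Uqcrb, named as lowest of complex III, shared 43.4% with 5 genes, and Atp5f1, lowest of complex V, 38.7% with 4. Of the c-ring genes, Atp5g1 shared 11.6% with 366 genes, Atp5g2 14.8% at a baseMean of 8.92, and Atp5g3 0%. How far copies moved these values was not tested. The 39 members without shared windows had a median of -0.12 with 34 below 0. Only exact 50-base matches to annotated transcripts were searched, so these members may still have inexact or unannotated copies.

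Of the 13 subunits encoded by mitochondrial DNA, 7 were analysed. Their median log2 fold change was -0.16, with 6 below 0, 0 called by the authors' DESeq2 test and 4 (57.1%) lower at an unadjusted p under 0.05. Of all genes with a baseMean of at least 3000, 23.4% were lower at that threshold. The complex I genes mt-Nd1, mt-Nd2, mt-Nd5 and mt-Nd4 were at -0.19 ± 0.07, -0.17 ± 0.08, -0.16 ± 0.07 and -0.15 ± 0.08 in the authors' deposited table. The complex IV catalytic subunit mt-Co1 was at -0.16 ± 0.07, and mt-Cytb of complex III was at -0.10 ± 0.07 in the authors' deposited table. The gene above 0 was mt-Nd6, at 0.01 ± 0.08 in the authors' deposited table, the 1 gene of these 7 that is encoded on the light strand.

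Lists of other mitochondrial and energy genes lay below 0 to different degrees. Over all genes 1.93% were called lower and 3.41% higher, and 7.2% were called lower at a baseMean of at least 3000. Median baseMean was 840 for the assembly factors, 5628 for the citric acid cycle list and 8939 for glycolysis. Whether a list differs from genes of its level was not tested. Of 39 assembly factors, 1 was called lower and 0 higher, with a median of -0.05: Ttc19, a complex III factor, was lower by a factor of 1.22 in the authors' deposited table (the authors' DESeq2 adjusted p = 0.000377), and Ndufaf7 was at -0.18 ± 0.08. Of 18 citric acid cycle and pyruvate dehydrogenase genes, 15 were below 0, with a median of -0.11, and 2 were called lower and 0 higher. Among the called genes was Dlat, of the pyruvate dehydrogenase complex, lower by a factor of 1.17 in the authors' deposited table. Suclg1, not called, was at -0.21 ± 0.07. Of 17 glycolysis genes, 14 were below 0, with a median of -0.13, and 3 were called lower and 0 higher. Ldha, lactate dehydrogenase A, was 1.28-fold lower, Pfkl 1.19-fold lower and Aldoc, an astrocyte-rich aldolase, 1.19-fold lower, per the authors' deposited table. Glycolytic enzymes act outside mitochondria, and their median was close to that of the members. Aldoc is also in the list of astrocyte markers.

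Over all genes, 1.93% were called lower and 3.41% higher. Of 25 genes of mitochondrial protein import, 16 were below 0, with a median of -0.06, and 1 was called lower (4%) and 0 higher. The called gene was Tomm20, an outer membrane receptor, lower by a factor of 1.13 in the authors' deposited table (the authors' DESeq2 adjusted p = 0.0446). All 14 mitochondrial chaperones and proteases were below 0 with a median of -0.09, and 0 were called by the authors' DESeq2 test, with 2 lower at an unadjusted p under 0.05. Phb and Hspe1 were nearest, at -0.21 ± 0.09 and -0.24 ± 0.10 in the authors' deposited table. Of 17 carriers and partners, 15 were below 0, with a median of -0.07, and 1 was called higher and 0 lower. The called gene, Ckmt1, the mitochondrial creatine kinase of brain, was at 0.31 ± 0.06 in the authors' deposited table (the authors' DESeq2 adjusted p = 4.88e-05), while Vdac2 was at -0.16 ± 0.06.

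Known regulators of mitochondrial biogenesis lay near 0. Of 16 measured, 6 were below 0, the median was 0.03, and 0 were called by the authors' DESeq2 test, with 1 higher at an unadjusted p under 0.05. That gene, Pprc1, a coactivator of the PGC-1 family, was at 0.24 ± 0.09 in the authors' deposited table (the authors' DESeq2 adjusted p = 0.0961). Ppargc1a, the gene for PGC-1 alpha, was at 0.05 ± 0.07 and Nrf1 at 0.07 ± 0.09 in the authors' deposited table. Gabpa was at -0.01 ± 0.08 and Tfam, the mitochondrial DNA packaging factor, at -0.04 ± 0.07 in the authors' deposited table. The regulators had a median baseMean of 956, against 2631 for the members, so the lists are not alike in level. Of the 6 members with a baseMean from 150 to 1000, 3 were below 0. Whether this list differs from the members was not tested.

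**Figure D4:**
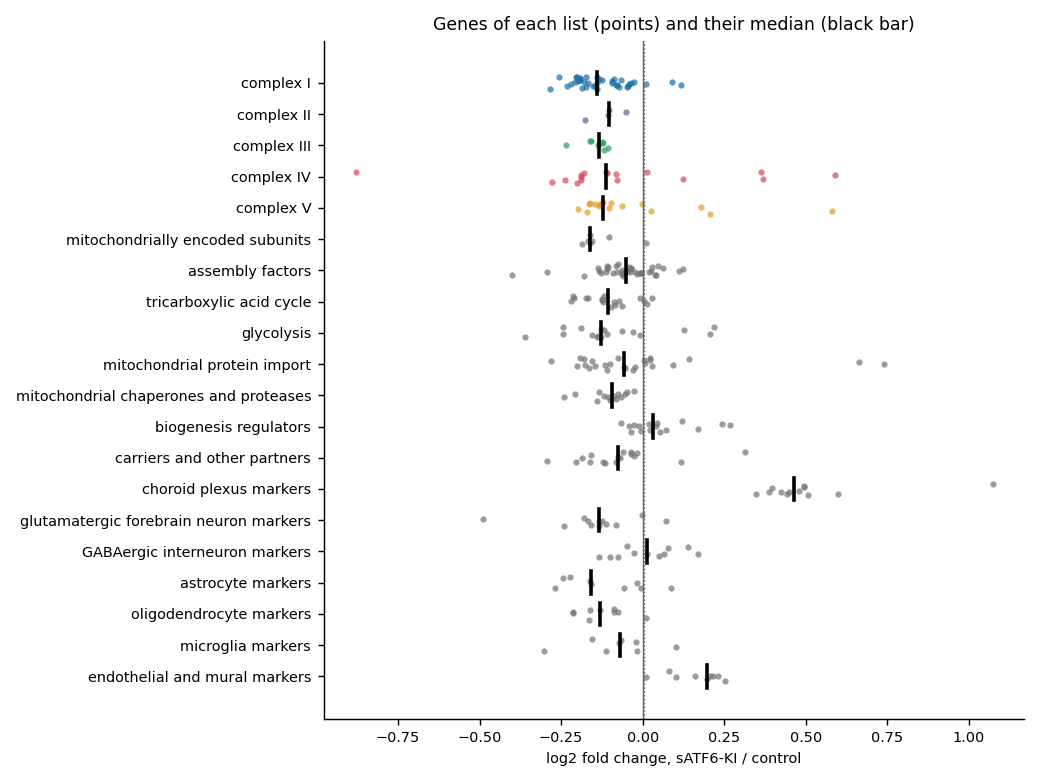
Log2 fold change of sATF6-KI over control (horizontal axis) for the genes of each list (points), with the list's median as a black bar, 0 as a solid line and the median of all genes, 0.00499, as a dotted line. Complexes I to V have medians between -0.14 and -0.10, the mitochondrially encoded subunits -0.16, biogenesis regulators 0.03 and choroid plexus markers 0.47.

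Ribosomal protein genes, also housekeeping genes, were set beside the members. Their median baseMean, 724 for the cytosolic and 954 for the mitochondrial set, was below the 2631 of the members in the authors' deposited table. The 81 cytosolic ribosomal protein genes had a median of -0.16, with 10 called lower (12.3%) and 0 higher in the authors' deposited table. The 75 mitochondrial ribosomal protein genes had a median of -0.08, with 1 called lower (1.33%). The share called lower was 1.93% over all genes. On these counts the members lie between these sets, and the differences were not tested.

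Marker lists of cell types differed in direction in the authors' deposited table. For comparison, 1.93% of all genes were called lower and 3.41% higher. Of 12 glutamatergic forebrain neuron markers, 11 were below 0 and 2 were called lower, with a median of -0.13, close to that of the members. Astrocyte markers had a median of -0.16 over 9 genes with 1 called lower, and oligodendrocyte markers -0.13 over 9 genes with 0 called. Microglia markers had -0.07 over 8 genes with 1 called lower. Choroid plexus markers, of a tissue that lies against the hippocampus, were all above 0 with a median of 0.47 over 12 genes, 11 of them called higher. Endothelial and mural markers had a median of 0.20 over 9 genes with 1 called higher, and interneuron markers 0.01 over 11 genes with 0 called. No defining marker of these lists was missing from the genes tested, and the part of cell composition in the members' shift was not tested.

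With the threshold at an adjusted p under 0.01, 2 members were called lower (0.777% of all genes), namely Cox6a1 and Ndufa5. With the threshold at 0.1, 14 were called lower and 0 higher (3.04% of all genes lower).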

How the data were processed

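Per the labels' protocols, snap-frozen hippocampus was extracted with Trizol, and stranded libraries of messenger RNA were prepared with a KAPA kit. Reads were trimmed, aligned, counted and compared with cutadapt through Trim Galore, STAR, HTSeq and DESeq2, as the submitters' processing notes name them. Not given in the sources used here are versions, genome build, annotation, strand setting and filter. The authors' deposited table gives, per the file headers, baseMean (a mean normalized signal), a log2 fold change, a Wald statistic (a score), a standard error (a score), a p-value and its adjusted form. The 6 columns of library values have names that match no label and were not used, so depth per sample is unknown here.

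The planned edgeR test was not run for that reason, and the authors' comparison takes its place. The deposited p-value differed from the normal p of the Wald score by at most 2.89e-15. The deposited error did not go with that score, so the error used is the ratio of the log2 fold change to that score (median 0.103 against 0.0783 deposited). Nothing says that the 3 mice of a group were independent in litter or batch, so p-values measure the spread between these samples. The code for calls and intervals was checked on simulated normal data with these same errors. That cannot show whether the intervals hold for 3 mice per group. Gene positions, transcript lengths and shared windows come from GENCODE M21 (GRCm38), in which all 85 members were matched by ID; promoter sequences come from RefSeq (GRCm38.p6). Members without a matched promoter window include Atp5a1, Cox4i1, Cox4i2, Cox6a2, Cox6c, Cyc1, Ndufa2, Ndufa4l2, Ndufb9, Ndufs1, Sdhc, Uqcrb, Uqcrc2 and Uqcrq. Computation was in Python 3.11.15 with scipy 1.17.1 and numpy 2.4.6, and tables and plots used pandas 2.3.3 and matplotlib 3.10.9.

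The members and lists were chosen with earlier results of these data known. Named are all called members, the highest and lowest of each complex with a baseMean of at least 100, core subunits, paralog pairs, and in other lists the called genes and those nearest the threshold; Cox7a2l, the pair Cox7b and Cox7b2, Ndufa12, Ndufab1, Atp5s, Atp5sl, Atp5l, Cox7c and the regulators beside Pprc1 were added after their values were seen. Some genes that this rule names are not reported here. Alternatives were other thresholds, other adjustments, a baseMean filter, a minimum fold and centring.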

Additional observations from a re-analysis of the deposited data

How the results depend on the processing

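The 6 members called lower became 2 at an adjusted p threshold of 0.01 and 14 at 0.1, and 2 with a fold change of at least 1.2; 0 were higher under each. Complex I went from 3 to 1 at 0.01, 8 at 0.1, 1 with the minimum fold and 5 relative to the median of all genes (0.00499). Complex IV went from 3 to 1 at 0.01 and 1 with the minimum fold. Complexes II and V went from 0 to 1 each at 0.1. Thresholds and the minimum fold change the call by construction. Centring took off a median above 0, which by construction moves every value below 0 further down. Counts stayed within 1.5 times for all members with protein-coding genes alone (7), baseMean of at least 10 (6), without the 3 factors (6) and relative to the median (8). Of 41 named members, 4 lost their call at 0.01 and 4 with the minimum fold, and 5 gained one at 0.1. The placing of Ndufa4 in complex IV and the background of abundant genes were alternatives chosen after the data had been seen. No paired analysis was possible because the library columns carry no replicate number of the labels. For the same reason edgeR, DESeq2 refits, other normalizations, count filters and fits without single replicates were not run. Depth per sample is unknown here, which limits the weight that a small shift can bear.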
